A study of Penicillium oxalicum with 9 samples.

Results

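A stretch of neighbouring loci of the filamentous fungus Penicillium oxalicum was examined, from PDE_01055 to PDE_01090. Its members are all rows of the deposited table whose locus number falls in that range, which gave 36 genes of 9860. The range was chosen because earlier results of the same data showed a fall there in the strain without crzA, so the fall itself is a description here and carries no test. The choice did not use the difference between recovery strain and wild type, which is tested below.

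The series held 3 strains with 3 libraries each: the wild type, strain 114-2, a CrzA deletion strain and a CrzA recover strain, called the recovery strain below. Mycelium was grown for 24 h at 30 °C in a starch pre-culture, washed, moved to modified Mendal's medium with 2% starch and collected after 18 h. For the carbon source the labels conflict, since the source name of each sample gives glucose while medium and growth protocol give starch, and this was not settled. The labels do not say how the deletion or the recovery strain was built, whether each is 1 clone, or whether replicates were separate cultures, so p-values reflect only how far these libraries differ among themselves, and that spread may be technical.

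CrzA is a fungal transcription factor with zinc fingers. It enters the nucleus when the calcium-activated phosphatase calcineurin removes phosphate groups from it, and it is known for its part in calcium tolerance, cell wall integrity and conidiation. In filamentous fungi, genes for the steps of 1 pathway, above all in secondary metabolism, often lie next to each other and are transcribed together. The file pairs locus numbers with no gene names, and the reference table, which belongs to strain HP7-1, matched 0 of the 9860 numbers. No member is therefore given a name, a function or a sequence here, the level of crzA itself was not analysed here, and "order" below means the order of the locus numbers.

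Levels are in FPKM, that is, fragments counted per kilobase of a gene and relative to library size. Summed FPKM ran from 973798 to 1063502 per library, and relative depth, estimated from 210 low genes whose values rose in whole steps, lay within 3.02% of the mean. Without read numbers no counting interval can be given. Wild-type replicate 2 and deletion replicate 2 stood apart from the other libraries of their strains over all genes: the SD of log2 differences to those libraries was 0.672 to 0.758, against 0.198 to 0.351 for the other pairs within a strain. Several differences and counts are also given without these libraries, but not every value that moved is given both ways.

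The window held 1 block of genes that were low in the deletion strain and, in the recovery strain, stood between 0.653 and 1.87 times their wild-type means. A member was called following when its mean log2(FPKM + 1) in the deletion strain was at least 1 below that of both other strains and its 3 deletion values lay below the other 6. By this rule 14 of the 36 members followed, beside 6.34% of the 9099 genes tested in the whole table; the rule for the window used this difference, and nothing is read from the count. The longest run of following members went from PDE_01063 to PDE_01076. It spanned 14 loci, 13 of them following, with PDE_01072 as the 1 exception. The remaining follower, PDE_01057, lay apart from the run, with 5 loci between them that did not follow. Of these loci, PDE_01060 and PDE_01062 were too low in the wild type to meet the rule.

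Together the 14 loci of the run summed to 1986, 1838 and 2301 FPKM in the wild-type libraries, 48.9, 72.7 and 89.0 in the deletion libraries and 3142, 3078 and 2505 in the recovery libraries. As a share of summed FPKM this was 0.195% ± 0.0238 in the wild type, 0.00701% ± 0.00183 in the deletion strain and 0.276% ± 0.0305 in the recovery strain (SD, n = 3 each). The strains did not overlap in the summed level, and the deletion libraries lay far below the other 6. Fewer cells that transcribe a gene and less RNA per cell cannot be told apart in such bulk samples. Among the 13 following genes of the run, the mean in the deletion strain was a median of 1.65% of the wild-type mean, from 0% for PDE_01075 to 18.9% for PDE_01063. As differences of mean log2(FPKM + 1), deletion minus wild type had a median of -4.83 (range -5.90 to -1.26) and deletion minus recovery a median of -4.76 (range -6.34 to -1.50). Over all 9099 genes tested the medians of these differences were 0.06 and -0.02. Both comparisons share the deletion libraries.

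**Figure D1:**
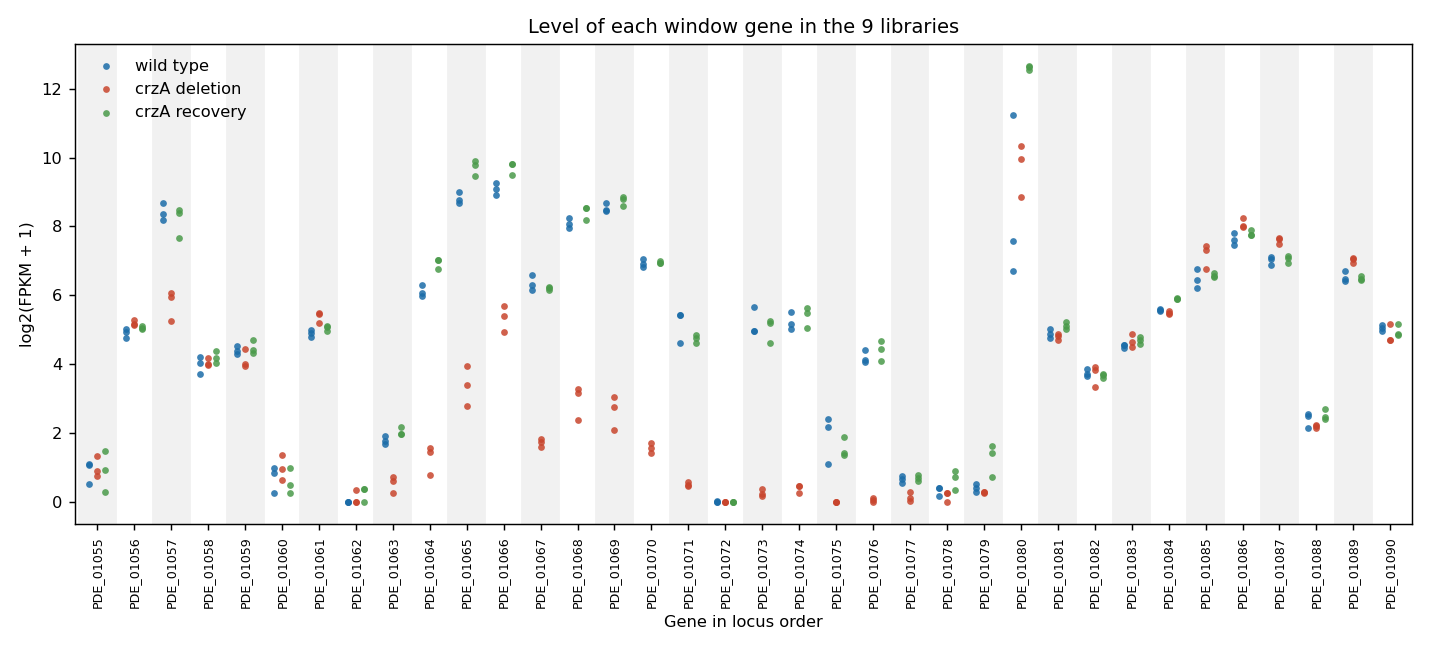
Level of each of the 36 window genes, as log2(FPKM + 1), in locus order, with 1 point per library and the 3 strains side by side. From PDE_01063 to PDE_01076, except at PDE_01072, all 3 deletion points lie below the other 6, while most loci outside that run have overlapping strains; PDE_01080 is the highest member in the recovery strain.

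The left border of the run was stepped. PDE_01062, the last locus before it, was listed at 0 in the 3 wild-type libraries, at 0.28, 0 and 0 FPKM in the deletion libraries and at 0.29, 0 and 0.29 in the recovery libraries. At PDE_01063, the first following gene, the values were 2.81, 2.24 and 2.41 FPKM in the wild type against 0.67, 0.53 and 0.21 in the deletion strain and 3.49, 2.90 and 2.97 in the recovery strain. It was a weakly transcribed gene with a modest difference, -1.26 ± 0.18 (SE, limma) on the log2(FPKM + 1) scale, which understates changes of low genes. The next gene, PDE_01064, stood at 66.3, 62.3 and 78.3 FPKM in the wild-type libraries, 0.71, 1.97 and 1.75 in the deletion libraries and 130, 128 and 108 in the recovery strain. Here all 3 strains were separate, with the recovery strain on top, and the log2 difference of deletion to wild type was -4.85 ± 0.21 (SE, limma).

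PDE_01065 and PDE_01066 were the most abundant genes of the run in all 3 strains. PDE_01065 read 433, 411 and 514 FPKM in the wild type against 5.86, 9.58 and 14.6 in the deletion strain, and 957, 875 and 710 in the recovery strain. PDE_01066 read 542, 477 and 610 FPKM in the wild-type libraries, 29.7, 40.9 and 51.0 in the deletion libraries, and 908, 907 and 717 in the recovery strain. In both genes the recovery libraries were all above the wild-type libraries. PDE_01066 kept 7.46% of its wild-type mean in the deletion strain, a log2 difference of -3.74 ± 0.21 (SE), against 2.21% and -5.44 ± 0.27 for PDE_01065. Within the run PDE_01066 was the only gene above 15 FPKM in any deletion library.

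From PDE_01067 to PDE_01070 the deletion strain kept between 1.48% and 2.83% of the wild-type mean. PDE_01067 had 78.6, 70.1 and 96.1 FPKM in the wild type against 2.05, 2.53 and 2.34 in the deletion strain and 74.4, 72.9 and 70.7 in the recovery strain. The wild-type and recovery values of PDE_01067 overlapped, and its recovery libraries spread little (72.6 ± 1.85 FPKM, SD, n = 3). For PDE_01068 the values were 270, 246 and 302 FPKM, then 4.18, 7.93 and 8.76, then 371, 369 and 290, in the same order of strains. PDE_01069 followed with 355, 350 and 406 FPKM in the wild-type libraries, 3.24, 5.81 and 7.34 in the deletion libraries and 445, 466 and 385 in the recovery strain. This was the steepest difference to the wild type in the window on the log2(FPKM + 1) scale, -5.90 ± 0.23 (SE). PDE_01070 had 111, 118 and 131 FPKM in the wild type against 1.71, 2.31 and 1.94 in the deletion strain and 126, 122 and 121 in the recovery strain. Its wild-type and recovery means, 120 ± 9.95 and 123 ± 2.57 FPKM (SD, n = 3 each), were the closest of the run in relative terms, and its difference to the deletion strain was -5.34 ± 0.12 (SE).

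The right part of the run was less abundant and was listed near 0 in the deletion strain. PDE_01071 stood at 41.8, 23.6 and 42.3 FPKM in the wild-type libraries, 0.41, 0.49 and 0.37 in the deletion libraries and 26.1, 23.8 and 27.6 in the recovery strain. PDE_01073 stood at 30.1, 30.0 and 49.3 FPKM in the wild type against 0.12, 0.17 and 0.30 in the deletion strain and 37.2, 35.7 and 23.4 in the recovery strain. In both genes wild-type and recovery values overlapped, and no deletion library reached 1 FPKM. PDE_01074 had 35.1, 31.4 and 44.5 FPKM, then 0.20, 0.39 and 0.37, then 43.7, 48.7 and 32.0 in the wild type, deletion and recovery strains. PDE_01076, the last gene of the run, had 16.3, 15.6 and 20.4 FPKM in the wild-type libraries, 0, 0.09 and 0.05 in the deletion libraries and 20.8, 24.8 and 16.2 in the recovery strain. These 2 genes kept 0.866% and 0.267% of their wild-type means, values that rest on FPKM rounded to 2 decimals. PDE_01075 was a low gene, at 3.54, 1.17 and 4.31 FPKM in the wild type with 1.56, 2.67 and 1.66 in the recovery strain, and was listed at 0 in all 3 deletion libraries, so no fold is given.

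Of the 13 following genes of the run, 11 were above 0 in every deletion library and 1, PDE_01075, was at 0 in all of them. The mean log2 levels of these 13 genes had nearly the same order in the wild type and the recovery strain (Spearman's rho 0.984, Pearson's r = 0.991, across 13 genes measured in the same libraries, as a description). In the deletion strain the order was looser but still followed the wild type (rho 0.890, r = 0.841). The exception inside the run, PDE_01072, was listed at 0 in 8 libraries and at 0.03 FPKM in wild-type replicate 3. With that level it could not have met the rule, and it is not shown to respond differently from its neighbours.

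**Figure D2:**
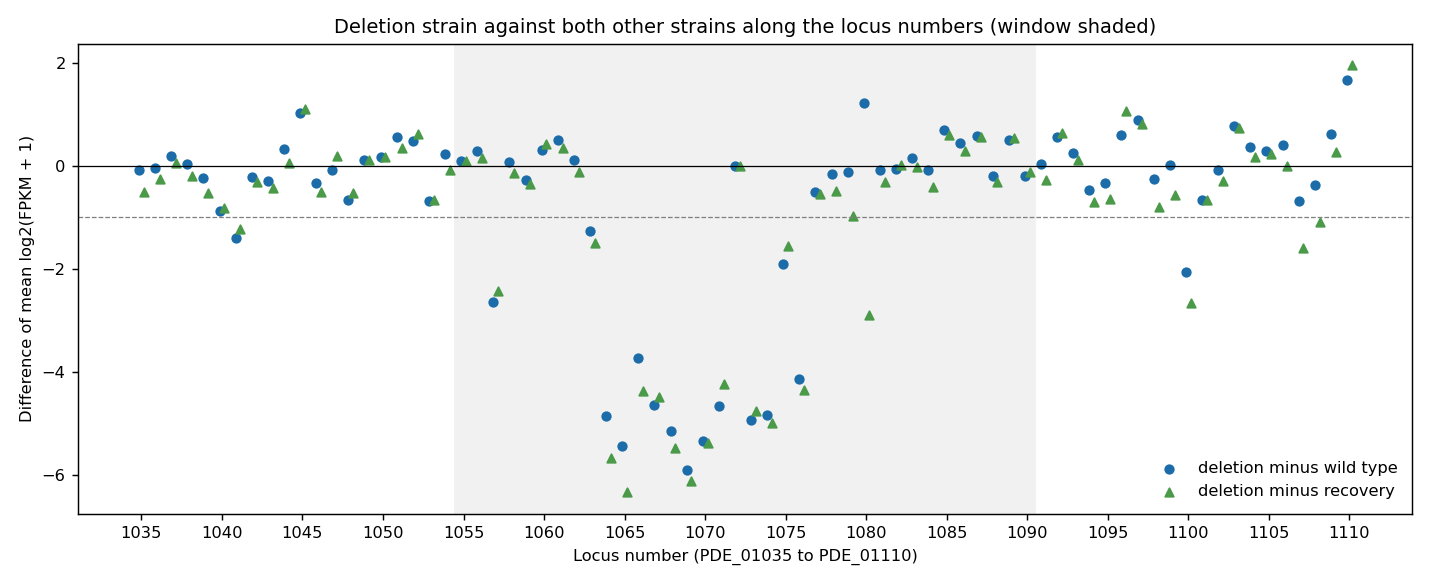
Difference of mean log2(FPKM + 1) between the deletion strain and the wild type (circles) or the recovery strain (triangles), by locus number, for the window (shaded) and 20 locus numbers on either side; the dashed line marks -1. The values drop at PDE_01063, stay between -3.74 and -5.90 against the wild type at the genes from PDE_01064 to PDE_01071, and lie between -0.51 and 1.21 against the wild type from PDE_01077 to PDE_01090, with PDE_01080 at -2.90 against the recovery strain.

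Past the right border came 3 loci with little signal in any strain. PDE_01077 stood at 0.48, 0.59 and 0.68 FPKM in the wild type against 0.03, 0.23 and 0.09 in the deletion strain and 0.52, 0.72 and 0.63 in the recovery strain. Its deletion values lay below the other 6, and its deletion mean was 20% of the wild-type mean, against 18.9% for PDE_01063. At its wild-type level a difference of 1 on the log2(FPKM + 1) scale could not be reached, so it could not have met the rule. With a pseudocount of 0.1 it followed, and the run then ended at PDE_01077. PDE_01078 stayed at or under 0.88 FPKM and PDE_01079 at or under 2.11 FPKM, both with their highest value in the recovery strain. At their wild-type levels they could not have met the rule either. Where the fall ends between PDE_01076 and PDE_01080 is therefore not settled. PDE_01079 had 1.68, 2.11 and 0.66 FPKM in the recovery libraries against 0.44, 0.33 and 0.22 in the wild-type libraries and 0.22, 0.21 and 0.22 in the deletion libraries. With PDE_01060, PDE_01062 and PDE_01072 these were the 6 members that failed the filter of at least 1 FPKM in at least 3 libraries, which left 30 members tested.

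PDE_01080 did not follow the run, and it had the largest difference of recovery to wild type in the window. Its levels were 190, 2410 and 103 FPKM in wild-type replicates 1, 2 and 3, 995, 460 and 1292 in the deletion replicates and 6370, 5942 and 6489 in the recovery replicates. The recovery libraries were all above the other 6, while wild-type and deletion values overlapped through wild-type replicate 2. In FPKM the deletion mean, 916 ± 422, was 102% of the wild-type mean, 901 ± 1307 (SD, n = 3 each). The mean log2 difference of deletion to wild type was 1.21 ± 0.98 and that of deletion to recovery -2.90 ± 0.98 (SE, limma). These 2 mean log2 differences lay on opposite sides of 0. Wild-type replicate 2, which holds the high value, is 1 of the libraries that stood apart over all genes. Without it the difference of deletion to wild type was 2.58, and without deletion replicate 2 as well it was 3.01. Without wild-type replicate 1 this difference was 0.75 and without wild-type replicate 3 it was 0.31. Against the recovery strain the difference was -2.46 without deletion replicate 2.

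To the left of the run, 7 of 8 members did not follow. Among these 7, PDE_01055, PDE_01060 and PDE_01062 were too low in the wild type to meet the rule. The follower, PDE_01057, had 288, 325 and 407 FPKM in the wild-type libraries, 37.0, 66.1 and 60.6 in the deletion libraries and 333, 353 and 204 in the recovery strain. Wild-type and recovery values overlapped, and the deletion strain kept 16.0% of the wild-type mean, a log2 difference of -2.65 ± 0.28 (SE). Its neighbours PDE_01056 and PDE_01058 did not follow. PDE_01056 had 26.0, 31.7 and 29.8 FPKM in the wild type against 34.4, 35.0 and 37.9 in the deletion strain and 31.3, 33.4 and 32.0 in the recovery strain. For PDE_01058 the strains overlapped at 15.0 ± 2.69, 15.7 ± 1.29 and 17.5 ± 2.26 FPKM (SD, n = 3, wild type, deletion and recovery). PDE_01059 overlapped as well, at 20.3 ± 1.77, 16.8 ± 3.39 and 21.5 ± 3.14 FPKM. PDE_01061, which lay 2 loci before the run, was higher in the deletion strain, with 43.1, 35.7 and 44.1 FPKM there against 28.8, 26.6 and 30.7 in the wild type and 33.3, 32.7 and 30.2 in the recovery strain. PDE_01055, the first member, and PDE_01060 stayed at or under 1.81 FPKM in all libraries with overlapping strains.

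To the right of PDE_01080, none of the 10 members from PDE_01081 to PDE_01090 followed. Their log2 differences of deletion to wild type ran from -0.20 to 0.69. The 3 genes PDE_01086, PDE_01087 and PDE_01089 had all deletion libraries above the other 6. PDE_01087 had 118, 138 and 133 FPKM in the wild-type libraries, 204, 180 and 199 in the deletion libraries and 135, 139 and 123 in the recovery strain. In PDE_01089 the levels were 84.1, 88.1 and 103 FPKM, then 135, 121 and 132, then 92.7, 86.8 and 87.6. PDE_01085 had the largest mean difference of this flank, 0.69 ± 0.20 (SE), but deletion replicate 2, at 107 FPKM, lay below wild-type replicate 2, at 108 FPKM. With PDE_01056 and PDE_01061 on the left, 5 members had the deletion libraries above all others, beside 16.7% of all genes tested. After quantile normalization PDE_01056 no longer did, and after rescaling to TPM PDE_01085 also did. With both libraries that stood apart left out (added after seeing the data) there were 6, PDE_01085 included, beside 30.2% of all genes tested. The other flank genes, PDE_01081 to PDE_01084, PDE_01088 and PDE_01090, had deletion means between 83.1% and 112% of the wild-type mean. Among them PDE_01084 had all deletion libraries below the other 6, narrowly so against the wild type. It stood at 44.1, 45.4 and 42.7 FPKM in the deletion libraries against 45.5, 47.6 and 46.5 in the wild type. The recovery libraries stood at 59.2, 58.7 and 58.6 FPKM. After rescaling to TPM the deletion libraries no longer lay below all other 6.

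The loci at either end of the window showed no step in the difference between strains, though the level itself changed at the left end. PDE_01054, just outside on the left, had 66.3 ± 21.8, 76.7 ± 16.9 and 81.1 ± 18.1 FPKM in the wild type, deletion and recovery strains (SD, n = 3), and PDE_01055, just inside, had 0.900 ± 0.390, 1.03 ± 0.439 and 0.983 ± 0.793 FPKM. With its low level PDE_01055 could not have met the rule for following. PDE_01090, the last member, had 32.2 ± 1.99, 28.2 ± 5.64 and 30.4 ± 3.75 FPKM, and PDE_01091, just outside on the right, had 22.1 ± 0.876, 22.8 ± 4.42 and 27.5 ± 2.39 FPKM. Among the 40 locus numbers on both sides, 39 of them tested, 2 met the rule for following, beside 6.34% of all genes tested. PDE_01041 had 22.3, 26.3 and 26.8 FPKM in the wild type against 8.54, 13.7 and 5.80 in the deletion strain and 25.5, 21.5 and 19.4 in the recovery strain. PDE_01100 had 336, 240 and 414 FPKM in the wild-type libraries, 87.7, 52.1 and 96.7 in the deletion libraries and 571, 536 and 372 in the recovery strain. Neither had a following neighbour. PDE_01040, beside PDE_01041, and PDE_01101, beside PDE_01100, missed the difference of 1, but their deletion values also lay below the other 6. Their deletion means were 52.2% and 63.2% of the wild-type means. Such a separation held in 13.2% of all genes tested. On the other side, PDE_01042 and PDE_01099 had deletion values that overlapped those of both other strains.

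For orientation, limma called 14 of the 30 tested members lower and 5 higher in the deletion strain than in the wild type (adjusted p under 0.05), beside 11.1% and 15.0% of all genes tested. Against the recovery strain it called 15 lower and 2 higher, beside 16.1% and 15.4%. The 14 were the following members, and the further one against the recovery strain was PDE_01084. Without both libraries that stood apart, 15 members were called lower and 7 higher than in the wild type. Against the recovery strain 17 were then called lower and 5 higher. Of all genes tested, 54.7% and 60.5% were then called in either direction in these comparisons, against 26.1% and 31.5% with all libraries. The window was chosen on these differences, so these calls add nothing to the description above.

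Recovery strain and wild type were compared to see how far the levels of the window in the recovery strain matched those of the wild type. No member was called (limma, Benjamini-Hochberg adjusted over 9099 genes), 0 of 30, beside 1.57% of all genes tested. At an unadjusted p under 0.05 there were 5 members, PDE_01064, PDE_01065, PDE_01066, PDE_01080 and PDE_01084, beside 14.2% of all genes tested. The median log2 difference of recovery to wild type was 0.15 over the 30 members and 0.09 over all genes tested. In 8 of the 30 all recovery libraries were above all wild-type libraries, beside 21.9% of genes tested, and in 0 of the 30 they were all below, beside 8.17%. The 8 were PDE_01063 to PDE_01066, PDE_01080, PDE_01081, PDE_01083 and PDE_01084; after median centring of the libraries PDE_01063 and PDE_01083 no longer belonged to them. A missed threshold does not show that the levels were alike, so the intervals are given next.

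PDE_01063, the first gene of the run, had a difference of 0.24 with an interval from -0.17 to 0.66 (limma adjusted p = 0.607). The 3 genes after it, PDE_01064, PDE_01065 and PDE_01066, had higher means in the recovery strain, and their 95% intervals lay above 0. PDE_01064 averaged 122 ± 12.2 FPKM in the recovery strain and 69.0 ± 8.31 FPKM in the wild type (n = 3 each, SD), a log2 difference of 0.81 with an interval from 0.33 to 1.29 (limma adjusted p = 0.113). PDE_01065 averaged 847 ± 125 against 453 ± 54.1 FPKM, a difference of 0.90 with an interval from 0.28 to 1.52 (limma adjusted p = 0.167). PDE_01066 averaged 844 ± 110 against 543 ± 66.8 FPKM, a difference of 0.63 with an interval from 0.15 to 1.11 (limma adjusted p = 0.208). None of the 3 passed the threshold, although the recovery and wild-type libraries did not overlap in any of them. Over the 22 other settings the adjusted p of PDE_01064 ran from 0.00310 to 0.413 and it was past the threshold in 6. PDE_01065 was past it in 2 settings (adjusted p from 0.0128 to 0.543) and PDE_01066 in 1 (0.0136 to 0.601).

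The other 9 following genes after PDE_01066 had no consistent sign: 5 were higher and 4 lower in the recovery strain, with log2 differences from -0.42 for PDE_01071 to 0.33 for PDE_01068. The smallest limma adjusted p among them was 0.447, and their 95% intervals together reached from -1.09 to 0.86. PDE_01071 had a wild-type mean of 35.9 ± 10.6 FPKM and a recovery mean of 25.8 ± 1.95 FPKM. Its wild-type replicate 2, at 23.6 FPKM, lay just below the lowest recovery library, at 23.8 FPKM. Without this wild-type replicate the log2 difference was -0.69 (limma adjusted p = 0.0255). PDE_01057, the follower outside the run, had a difference of -0.22 with an interval from -0.86 to 0.41 (limma adjusted p = 0.765).

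**Figure D3:**
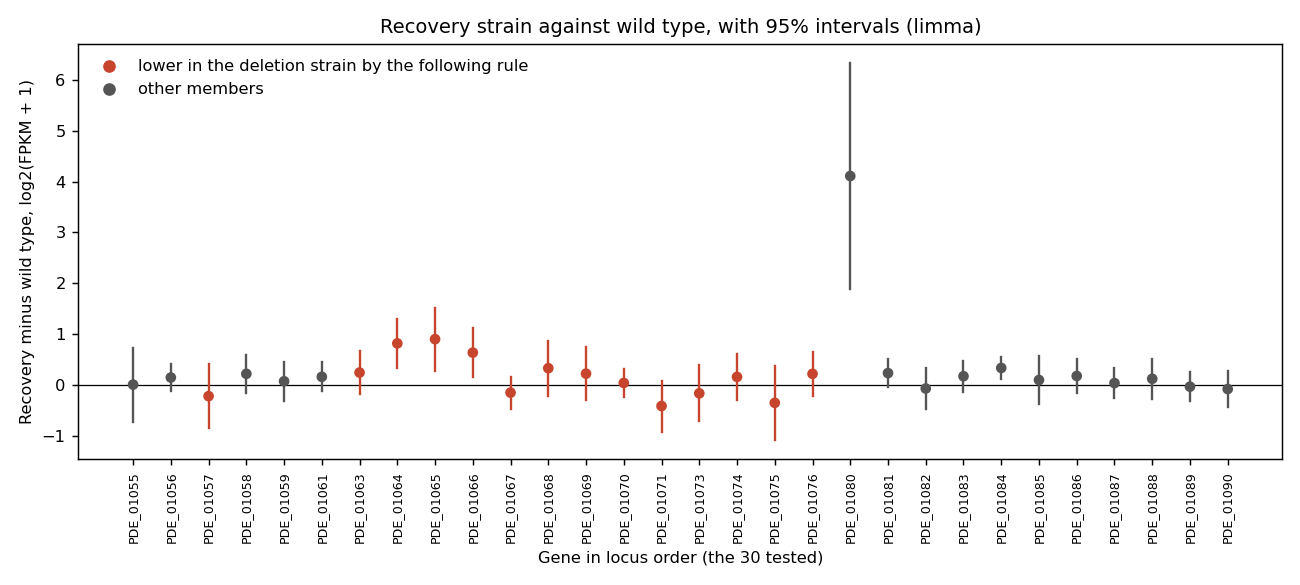
Recovery minus wild type on the log2(FPKM + 1) scale for the 30 tested members in locus order, with 95% intervals from limma; following members are red and the others grey. The intervals of PDE_01064, PDE_01065, PDE_01066, PDE_01080 and PDE_01084 lie above 0 and the others include it, while no member is past the adjusted threshold.

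The largest difference of recovery to wild type belonged to PDE_01080, at 4.11 with an interval from 1.88 to 6.34 (limma adjusted p = 0.0866). It averaged 6267 ± 287 FPKM in the recovery libraries and 901 ± 1307 FPKM in the wild-type libraries (n = 3 each, SD), and wild-type replicate 2 made the wild-type SD larger than the mean. Without wild-type replicate 2 the difference was 5.48 (limma adjusted p = 0.000247), so this 1 library decided whether the gene was called. PDE_01084 showed a small but even difference, with 58.8 ± 0.334 FPKM in the recovery strain against 46.6 ± 1.04 in the wild type, a log2 difference of 0.33 with an interval from 0.11 to 0.56 (limma adjusted p = 0.159). Without both wild-type replicate 2 and deletion replicate 2, 5 members were called, PDE_01064, PDE_01080 and PDE_01084 higher and PDE_01071 and PDE_01075 lower in the recovery strain, beside 27.9% of all genes tested. Without wild-type replicate 2 alone there were 2, PDE_01080 and PDE_01071, beside 7.5%. Without deletion replicate 2 alone, and likewise without deletion replicate 1, there was 1, PDE_01064, beside 4.66% and 1.26% of all genes tested. With all libraries, PDE_01107 was the 1 gene called of 39 tested among the 40 locus numbers around the window, beside 1.57% of all genes tested. It stood at 39.9 ± 3.16 FPKM in the recovery strain against 21.3 ± 4.58 in the wild type, a difference of 0.90 (limma adjusted p = 0.0425).

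Within a strain the genes of the run tended to vary together from library to library, most evenly in the wild type. The choice of the window did not use this spread. Wild-type replicate 3 was the highest wild-type library in 12 of the 13 following genes of the run, beside 31.6% of all genes tested. Wild-type replicate 2 was the lowest in 12, beside 45.8%. With that library left aside, also added after seeing the data, replicate 3 was above replicate 1 in 12 of the 13, beside 59.7% of all genes tested. The exceptions were PDE_01063, where replicate 1 was highest, and PDE_01070, where replicate 1 was lowest. Deletion replicate 1 was the lowest deletion library in 10 of the 13, beside 22.9%, and recovery replicate 3 the lowest recovery library in 10, beside 51.6%. The highest deletion library was split, with replicate 2 highest in 6, beside 38.0%, and replicate 3 in 5, beside 22.1%. In the deletion strain 6 of the 13 genes were under 1 FPKM in all libraries, so their order there rests on values near 0. The genes share their libraries, so these counts describe 9 libraries and not 13 separate observations. The median deviation from the strain mean over the 13 genes, on the log2(FPKM + 1) scale, ran from -0.14 to 0.19 in the wild type, from -0.13 to 0.07 in the deletion strain and from -0.17 to 0.11 in the recovery strain. On this scale the genes near 0 in the deletion strain can deviate little. The summed level of the run spread most there in relative terms, from 48.9 to 89.0 FPKM. It ran from 1838 to 2301 in the wild type and from 2505 to 3142 in the recovery strain. All of the median deviations were small beside the differences between the deletion strain and the others.

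**Figure D4:**
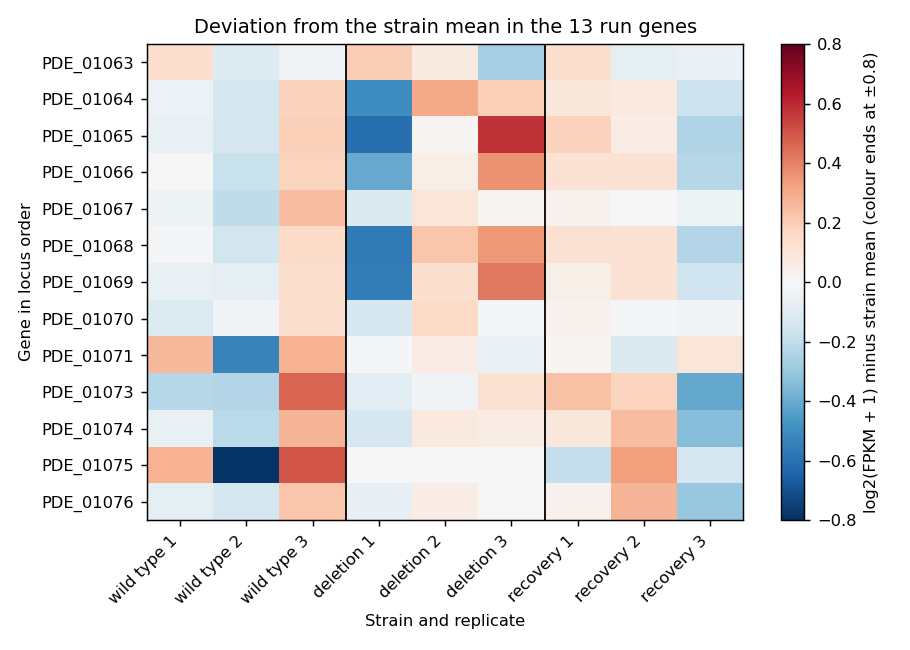
Deviation of each library from the mean of its strain on the log2(FPKM + 1) scale (colour), for the 13 following genes of the run (rows) and the 9 libraries (columns, strains divided by lines). Wild-type replicate 3 is above and replicate 2 below the strain mean in nearly all rows; recovery replicate 3 and deletion replicate 1 are mostly below theirs, and PDE_01075, at 0 in all 3 deletion libraries, has no deviation there.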

How the data were processed

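Values were taken from 1 deposited table of 9860 genes with levels in FPKM per the file headers, given to 2 decimals. The libraries were, per the labels' protocols, short tags cut with NlaIII and MmeI, which need no division by gene length, so protocol and unit do not match and levels of different genes may not be comparable as numbers of molecules. The sources used here name no aligner, counter, genome build or annotation.

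Columns were matched to samples by name. Genes with at least 1 FPKM in at least 3 libraries were tested (9099, of them 30 members) as log2(FPKM + 1), with limma 3.58.1 in R 4.3.3: 1 mean per strain over all 9 libraries, no covariates, trend and robust options, two-sided, Benjamini-Hochberg adjustment over all genes tested, threshold 0.05. The script was tried on simulated data. Summaries used Python 3.11.15 with numpy 2.4.6 and pandas 2.3.3. Relative depth came from 210 low genes whose values were whole multiples of a step within 12% of it; a depth difference by a whole factor could go unseen. All 9 libraries were counted as separate samples; the closest pair, recovery replicates 1 and 2, had an SD of log2 differences of 0.198 over the genes tested. Every member may be named; full values are given for following members and for those at the borders. Members, rules and alternatives were chosen with earlier results of these data known.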

Additional observations from a re-analysis of the deposited data

How the results depend on the processing

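The count of following members was 14 in the main setting, 15 with a pseudocount of 0.1, 12 with a pseudocount of 5, 12 at a 4-fold difference and 14 under all other settings tried, leaving out each library included. The run kept its ends at PDE_01063 and PDE_01076 except with a pseudocount of 0.1 (end at PDE_01077), with a pseudocount of 5 or a 4-fold difference (start at PDE_01064), and where no gap was allowed, which by construction ended it at PDE_01071 after 9 loci. Members called between recovery and wild type, 0 in the main setting, numbered 1 with a pseudocount of 5 (beside 1.6% of all genes tested), 2 with only the compared strains fitted (3.19%), 7 with array weights (6 higher and 1 lower, 29.2%), 5 without both libraries that stood apart (27.9%), and 0 to 2 when 1 library was left out (7.5% where there were 2); the cause was not tested. Equal replicate numbers were not treated as pairing: deviations from the strain means correlated above 0.1 in 3 of the 9 pairs with the same number (range -0.11 to 0.22), and 6 of 9 libraries correlated best with a library of their own number. With the replicate number as a block, 0 members were called between recovery and wild type, beside 1.24% of all genes tested. In deletion against wild type 17 were called (beside 23.5%) and in deletion against recovery 17 (29.5%). Without the block these counts were 0 (1.57%), 19 (26.1%) and 17 (31.5%). Of 656 alternative values of single members in recovery against wild type, 637 stayed on their side of the threshold and 19 passed it. Of 1312 alternative values in the deletion comparisons, 60 moved by at least the SD between replicates, 42 of them in following members under another pseudocount, and 1252 moved by less; no following member changed sign. What absolute depth limits could not be estimated, as read numbers are unknown.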
